A study of Mus musculus with 6 samples.

Results

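Laminin chains are the subunits of the main adhesive protein of basement membranes, and 5 of their genes were followed here in mouse soleus, a slow postural muscle of the lower leg. The members were the probes annotated as Lama2, Lama3, Lamb1, Lamb2 or Lamc1, chosen as a gene family and not by their values. Each gene had 1 probe, so they made up 5 of the 203 named genes on the array. All 6 arrays came from a single group, soleus of C57Bl/6 mice titled wild type whose muscle had been reloaded for 1 day, numbered as replicates 1 to 6. The labels gave no gene deletion, drug, age or sex for this group, and did not state whether 6 separate animals were sampled, so the spreads given are those between samples and may be partly technical. No unloaded or untouched muscle was analysed here, and the values therefore show how the chains differed from sample to sample, not what reloading did to them.

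Laminins are trimers of an alpha, a beta and a gamma chain that polymerise on the cell surface and tie the basement membrane to receptors such as integrins and dystroglycan. The alpha 2 chain, encoded by Lama2, is the main alpha chain around adult muscle fibres, and its loss causes muscular dystrophy in mice and humans. The gamma 1 chain (Lamc1) is shared by most laminins, the beta 1 chain (Lamb1) lines the fibre surface, the beta 2 chain (Lamb2) is concentrated at the neuromuscular junction, and the alpha 3 chain (Lama3) is best known from the basement membrane under skin and other epithelia. The gamma 1 chain was once called B2, and the gene table of GRCm38.p6 still lists Lamb2 among the older names of Lamc1, so probes were tied to genes by gene identifier.

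The arrays differed widely in overall signal. The deposited values were intensities on a linear scale after some background subtraction, and they summed to 165.3 on replicate 1, to between 35.2 and 41.3 on replicates 2 to 5, and to 13.8 on replicate 6. The size of an array's lowest negative value served as its noise bound, which came to 0.0144 on replicate 1 and to between 0.0011 and 0.0028 on the others. Of the 203 named genes, 162 were above 0 on all 6 arrays and 123 were above the noise bound on all of them. For levels, log2 intensities were centred on each array's median over the 175 probes above 0 on all arrays, so that 0 stands for the median probe. A ratio of 2 chains on the same array needs no such scaling. Different probes bind with different strength, so neither a level nor a ratio is read as a proportion of transcripts, only its change between arrays. All 7 muscle fibre markers measured (Myh7, Myh2, Myh1, Myh4, Des, Mb and Ttn) were above the noise bound on all arrays. The measured markers of endothelium, of fibroblasts and pericytes and of adipocytes all were too, so this does not by itself identify the tissue.

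Among the alpha chains, Lama2 was dim but even and Lama3 varied more than nearly any other gene. The deposited intensity of Lama2 was 0.0088, 0.0035, 0.0032, 0.0064, 0.0041 and 0.0024 on replicates 1 to 6. The value on replicate 1 lay under that array's noise bound, and the other 5 exceeded theirs, by at most 4.57 times. On the centred log2 scale Lama2 was at -2.11 ± 0.49 (SD, n = 6), with a 2.89-fold range from replicate 1 to replicate 4, or 1.89-fold without replicate 1 and 1.78-fold without replicate 4. Of the 162 genes, 28.4% had a smaller SD than Lama2, whose SD lay under the median of 0.64 over all genes.

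Lama3 had deposited intensities of 0.0070, 0.0066, 0.0039, 0.0233, 0.0932 and 0.0190 on replicates 1 to 6. It was high on replicates 4, 5 and 6 and low on replicates 1, 2 and 3, where it was under the noise bound on replicate 1 and 1.5 times the bound on replicate 3. The highest value, on replicate 5, was 33.3 times the bound of that array, so the signal there was well clear of noise. On the centred scale Lama3 was at -0.41 ± 2.09 (SD, n = 6), and 158 of the 162 genes had a smaller SD. Its range was 51.0-fold after centring, 17.7-fold without replicate 5 and 21.8-fold without replicate 1. In bulk muscle, fewer cells making a transcript and less transcript per cell cannot be told apart, and this applies to every level given here.

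The 2 beta chains were measured unequally well. Lamb1 was above 0 on 6 of 6 arrays but above the noise bound on 0 of 6. Its deposited intensities were 0.0022, 0.0015, 0.0008, 0.0014, 0.0004 and 0.0003, and the last is known only to within 16.7% because values were deposited with 4 decimals. Its centred level of -4.41 ± 0.84 (SD, n = 6) and all ratios with it are therefore dominated by values that cannot be told from background, which does not show that the transcript was absent. Lamb2 had 0.0365, 0.0157, 0.0172, 0.0299, 0.0297 and 0.0183, all above the bound, by 2.53 to 21.4 times. On the centred scale it was at 0.33 ± 0.67 (SD, n = 6), lowest on replicate 1 and highest on replicate 6. Its range was 3.28-fold, close to the median range of 3.32-fold over all genes, and 1.77-fold without replicate 1. In deposited units Lamb2 was instead highest on replicate 1.

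Lamc1, the gamma chain, was well clear of noise on all arrays. Its deposited intensities were 0.6265, 0.0577, 0.1026, 0.0686, 0.0501 and 0.0169, at least 15.4 times the noise bound on every array. Replicate 1 was highest and replicate 6 lowest in deposited units and on the centred, quantile-normalized and 28S-scaled scales. After centring the level was 2.06 ± 0.88 (SD, n = 6), with a 5.67-fold range that narrowed to 3.90-fold without replicate 1 and 3.27-fold without replicate 6. The range was 37.1-fold in deposited units and 17.4-fold relative to 28S ribosomal RNA. A share of 70.4% of genes had a smaller SD.

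**Figure D1:**
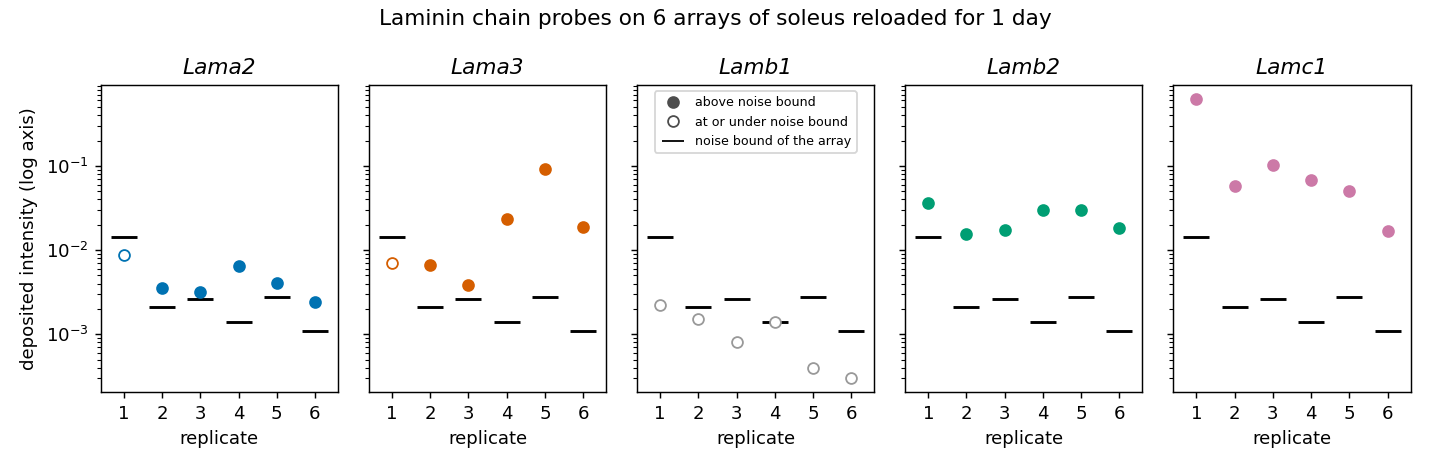
Deposited intensity (log axis) of each laminin chain probe on replicates 1 to 6; filled points are above the array's noise bound, open points at or under it, and black dashes mark the bound. Lamb1 is open on all arrays, Lama3 is highest on replicate 5 (0.0932) and Lamc1 on replicate 1 (0.6265).

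The 3 other laminin chains on the array give a comparison. Lama4, the alpha 4 chain found in vessel walls, and Lama5, the alpha 5 chain of many adult basement membranes, were above the noise bound on all arrays, with SDs of 0.36 each on the centred scale and ranges of 2.11-fold and 1.97-fold. After centring both were thus more even than each of the 5 chains above, with no test of that difference. For Lama2 this order rested on its value under the noise bound on replicate 1. With that value set to the bound, Lama2 spanned 1.89-fold, less than either. With quantile normalization Lama2 spanned 2.03-fold, against 1.95-fold for Lama4 and 2.33-fold for Lama5. Relative to 28S the order changed as well, since Lama4 spanned 5.43-fold, against 3.56-fold for Lama2 and 3.61-fold for Lamb2. Lamb3, the beta 3 chain that joins alpha 3 in the laminin of skin, had deposited intensities of -0.0005, 0.0000, 0.0006, 0.0033, 0.0013 and 0.0029. It exceeded the noise bound on replicates 4 and 6 only, which are among the 3 arrays where Lama3 was high, and it did not exceed it on replicate 5, where Lama3 was highest. No marker of epithelium, nerve or blood from the lists used was on the array, so their part in the Lama3 values was not tested.

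Within the arrays, the balance between chains differed by more than 10-fold for 6 of the 10 pairs, a span that 31.9% of all pairs of named genes also passed. The count was 4 of the 10 without replicate 1 or without replicate 5, and 5 with values under the noise bound set to it. It was 2 with every value allowed to be off by its bound, and only 4 of the 10 pairs then had any difference left. That allowance was worked out only between the array with the highest ratio and the one with the lowest. It therefore does not give the smallest possible span over all 6 arrays. The widest was Lama3 over Lamc1, an alpha to gamma ratio, with values of 0.0112, 0.114, 0.0380, 0.340, 1.86 and 1.12 on replicates 1 to 6. The Lama3 probe was thus brighter than the Lamc1 probe on replicates 5 and 6 and dimmer on the other 4. The mean log2 ratio was -2.47 ± 2.85 (SD, n = 6), a 166.5-fold span between replicates 5 and 1. With Lama3 set to the noise bound on replicate 1 the span was 80.9-fold, and without replicate 1 it was 48.9-fold. With every value allowed to be off by its bound, replicates 5 and 1 still differed 48.9-fold. Without replicate 5 the span was 100.6-fold.

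Lamb2 over Lamc1, a beta to gamma ratio, was the only one of the 10 with both chains above the noise bound on all arrays. It was 0.0583, 0.272, 0.168, 0.436, 0.593 and 1.08 on replicates 1 to 6, lowest on replicate 1 and highest on replicate 6. The mean log2 ratio was -1.73 ± 1.48 (SD, n = 6) and the span 18.6-fold. With every value allowed to be off by its bound, replicates 6 and 1 still differed 11.5-fold. The span rested in part on the 2 arrays of extreme signal: it was 6.46-fold without replicate 1, 10.2-fold without replicate 6 and 3.54-fold without both. Lama2 over Lamc1 was 0.0140, 0.0607, 0.0312, 0.0933, 0.0818 and 0.142, again lowest on replicate 1 and highest on replicate 6. Its mean log2 ratio was -4.17 ± 1.21 (SD, n = 6). Its 10.1-fold span became 6.18-fold with Lama2 at the noise bound on replicate 1, and 4.55-fold without that replicate. With noise allowed for, replicates 6 and 1 still differed 1.91-fold.

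Lama3 over Lamb2 was 0.192, 0.420, 0.227, 0.779, 3.14 and 1.04, highest on replicate 5 and under 0.5 on replicates 1, 2 and 3. Its mean log2 ratio was -0.74 ± 1.51 (SD, n = 6), and its span of 16.4-fold became 5.41-fold without replicate 5. With noise allowed for, replicates 5 and 1 still differed 2.87-fold, replicate 1 being the array with the largest noise bound. Lama3 over Lama2, between the alpha chains, spanned 28.6-fold, or 22.7-fold with values under the noise bound set to it and 9.95-fold without replicate 5. With noise allowed for, no difference was left between replicates 5 and 1 for this ratio, as both chains were under the bound on replicate 1. The 4 ratios that involve Lamb1 spanned 4.39-fold to 73.2-fold, with Lamb1 at or under the bound on every array.

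**Figure D2:**
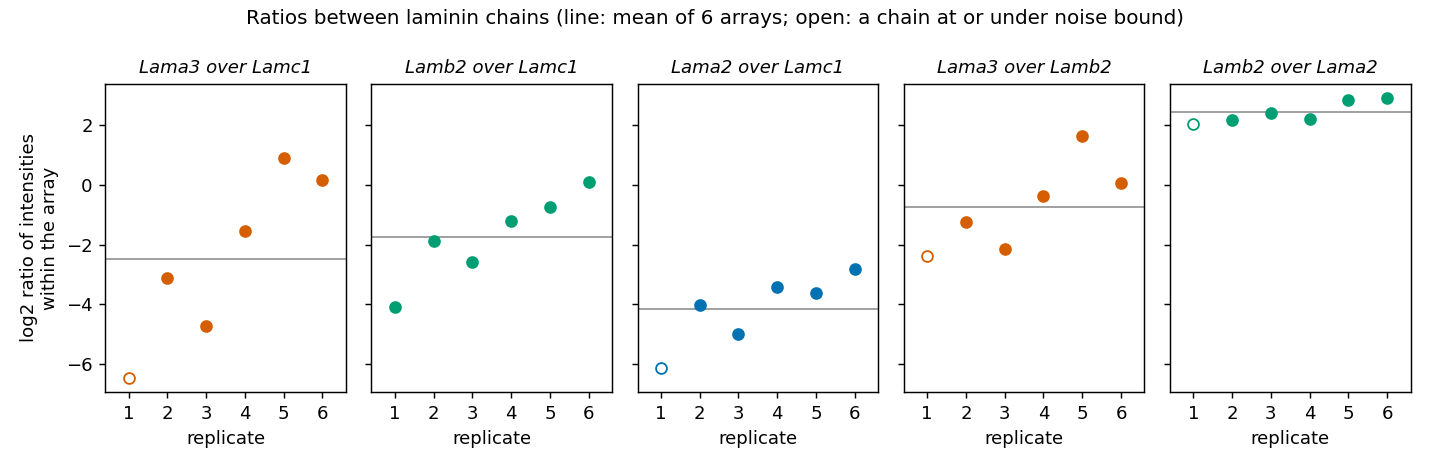
Log2 ratio of intensities within each array for 5 pairs of laminin chains on replicates 1 to 6, with the mean of the 6 arrays as a line; open points have a chain at or under the noise bound. Lama3 over Lamc1 spans 166.5-fold and Lamb2 over Lama2 spans 1.84-fold.

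The exception was Lamb2 over Lama2, the steadiest ratio of the 10. It was 4.15, 4.49, 5.375, 4.67, 7.24 and 7.625 on replicates 1 to 6, a span of 1.84-fold with a mean log2 ratio of 2.44 ± 0.37 (SD, n = 6). Only 6.55% of all 13041 pairs of named genes had a smaller SD of their ratio. With Lama2 set to the bound on replicate 1 the span was 3.01-fold and the SD 0.58, for which no share of gene pairs was worked out. Without that replicate the span was 1.70-fold. Both chains belong to laminins of the muscle fibre surface, the beta 2 chain mainly at the synapse.

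Over the 10 chain pairs the median SD of the log2 ratio was 1.35, against 0.93 over all 13041 pairs of named genes, and 8 of the 10 exceeded that median. All 4 ratios of Lama3 were among the 6 that spanned over 10-fold, so the pairs are not independent of each other. For Lama3 over Lamc1, 1.71% of gene pairs had a larger SD, and for Lamb2 over Lamc1 20.8% did.

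**Figure D3:**
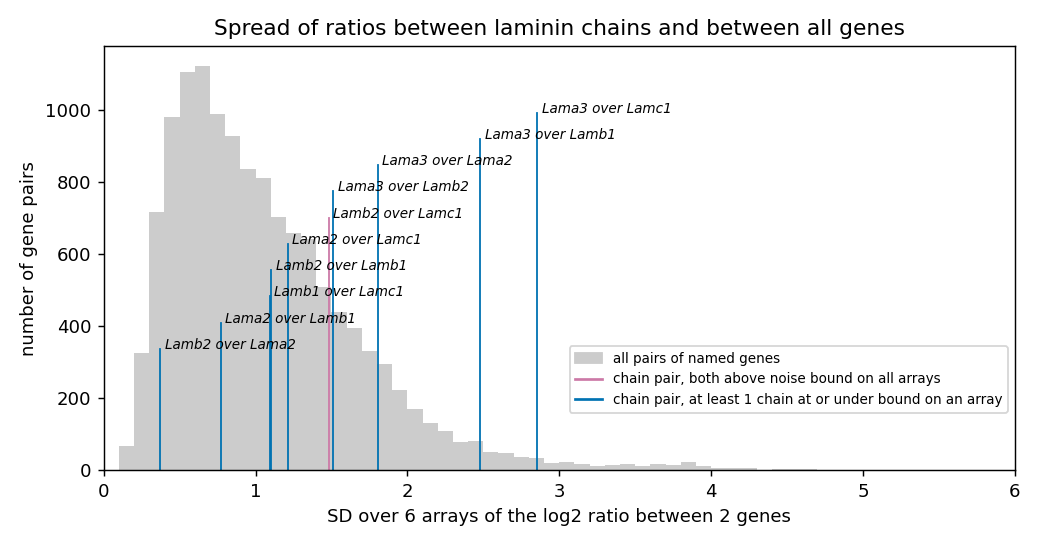
Histogram of the SD over 6 arrays of the log2 ratio between 2 genes, for all 13041 pairs of named genes, with the 10 pairs of laminin chains as labelled lines whose height has no meaning. Lamb2 over Lama2 lies at 0.37 and Lama3 over Lamc1 at 2.85, against a median of 0.93 over all pairs.

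Correlations of centred levels over the 6 arrays were tested for all 13041 gene pairs by exact two-sided permutation of the 720 pairings, with Benjamini-Hochberg adjustment over all of them. Of the 10 chain pairs, 3 reached an unadjusted p under 0.05, against 19.9% of all gene pairs, and 0 passed adjustment, as for 0% of all pairs. By rho, 1 of the 10 did so unadjusted, against 13.7% of all gene pairs. Lama3 and Lamb2 had r = 0.90 and rho = 0.77, with exact permutation p-values of 0.0319 and 0.103 that adjusted to 0.208 and 0.377. Leaving out replicates 1 and 5, the arrays farthest from the median, gave r = 0.94. Lamb2 and Lama2 had r = 0.84, for which the exact permutation p of 0.0222 adjusted to 0.184, and their rho of 0.77 had the same p as that of Lama3 and Lamb2. Their r was 0.70 without replicates 1 and 4. Lama3 and Lamc1 ran opposite, with r = -0.82 and rho = -0.89, whose exact permutation p-values of 0.0458 and 0.0333 adjusted to 0.238 and 0.244. Without replicates 1 and 5 this r was -0.80. Without scaling these 3 r were 0.43, 0.85 and -0.43, beside a median of 0.772 over all gene pairs. Relative to 28S they were 0.62, 0.86 and -0.53 beside a median of 0.643, and with quantile normalization 0.89, 0.75 and -0.83 beside a median of 0.0293. Without replicate 1, 0 of the 10 pairs had an unadjusted p under 0.05, against 11.6% of all gene pairs.

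Lamb2 and Lamc1 had r = -0.82 on the centred scale (exact permutation p = 0.0625, adjusted p = 0.27), but 0.57 in deposited units and 0.15 relative to 28S, so the sign depended on the scaling. The unequal change of the pair does not, since their ratio is free of it. The remaining 6 pairs had r between -0.53 and 0.66, with exact permutation p of at least 0.132, and in 3 of them (Lama3 with Lama2, Lamb2 with Lamb1 and Lama2 with Lamc1) the sign also depended on the scaling. With 6 samples, a p that misses the threshold does not show that chains varied independently.

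Of the 5 chains, 2 had an unadjusted p under 0.05 with array signal. The centred level of Lamc1 had r = 0.91 and rho = 0.83 with the log2 summed intensity, with exact permutation p-values of 0.0111 and 0.0583 that adjusted to 0.09 and 0.169. For Lamb2 r was -0.87 and rho -0.94, with exact permutation p-values of 0.00417 and 0.0167 that adjusted to 0.0643 and 0.117, while its deposited level had r = 0.60. Without replicates 1 and 6 these r were 0.86 and -0.77. Neither passed adjustment over all genes, where 34% had an unadjusted p under 0.05 and 0% an adjusted one. The other 3 chains had r of -0.65 (Lama2), -0.70 (Lama3) and -0.02 (Lamb1), each with an exact permutation p of at least 0.0875. The part of overall signal in the Lamb2 to Lamc1 ratio was not tested.

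Among genes above noise, the one most like Lamb2 over the 6 arrays was Tnc, which encodes tenascin-C, a matrix glycoprotein of tendon and of muscle under load or repair. Tnc had deposited intensities of 0.0407, 0.0199, 0.0224, 0.0378, 0.0331 and 0.0210 on replicates 1 to 6. Both genes were low on replicates 2, 3 and 6 and higher on the other 3. Lamb2 over Tnc stayed between 0.768 and 0.897, a 1.17-fold span, and 2 of the 13041 gene pairs had a ratio of smaller SD than its 0.10. Their centred levels had r = 0.99 and rho = 0.94, with exact permutation p-values of 0.00278 and 0.0167 that adjusted to 0.122 and 0.191, and r was 0.96 without replicates 1 and 2. It stayed between 0.97 and 0.99 on the other 3 scales.

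The stretches before the starts of Lamb2 and Tnc are shown because the ratio of this pair was among the steadiest. They are the 250 bases before a RefSeq transcript start, 5′ to 3′, from GRCm38.p6, chr9:108479612-108479861 on the plus strand for Lamb2 and chr4:64047016-64047265 on the minus strand for Tnc. For Lamb2 1 window was listed and for Tnc 2, of which 1 is shown. The last 15 bases of the Lamb2 window lie within the full span of the gene in RefSeq and none of the Tnc window shown do. Capitals mark E boxes (CANNTG, the letters bound by MyoD and other basic helix-loop-helix factors), a GC box (GGGCGG) and a TATA box (TATAAA).
Lamb2: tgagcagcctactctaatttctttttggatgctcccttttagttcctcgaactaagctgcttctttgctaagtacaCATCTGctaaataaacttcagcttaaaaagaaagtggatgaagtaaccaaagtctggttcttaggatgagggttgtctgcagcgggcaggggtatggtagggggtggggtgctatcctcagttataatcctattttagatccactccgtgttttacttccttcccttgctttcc
Tnc: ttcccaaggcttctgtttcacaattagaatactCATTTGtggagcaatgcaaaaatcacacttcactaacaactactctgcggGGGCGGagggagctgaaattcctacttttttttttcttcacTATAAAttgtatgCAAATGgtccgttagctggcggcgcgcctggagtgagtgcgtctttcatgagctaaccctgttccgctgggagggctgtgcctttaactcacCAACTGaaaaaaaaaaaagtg
The Lamb2 window held 1 E box, and the Tnc window held 3 E boxes, 1 GC box and 1 TATA box, counting both strands. Of 32851 such windows of all genes, 66.2% held an E box, 32.7% a GC box and 12.4% a TATA box. An AP-1 site (TGANTCA), found in 6.75% of windows, was in neither. The GC content was 43.6% for Lamb2 and 44.8% for Tnc, against a median of 52.4%. A match of letters is not a site in use. A window was listed for 3 of the 5 chains.

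After Tnc, the genes most like Lamb2 were Ang2, an angiogenin-type ribonuclease (r = 0.97, ratio span 1.68-fold), and Csf2rb2, a cytokine receptor chain (r = 0.96, ratio span 3.40-fold). In deposited units their r with Lamb2 was 0.88 and 0.45, beside a median of 0.772 over all gene pairs. For Lama2 the most alike were Igfbp6, an IGF-binding protein (r = 0.89, ratio span 1.59-fold), Tnc (r = 0.89, ratio span 1.89-fold) and Lamb2 itself.

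Lamc1 was most like Fgfr2, a fibroblast growth factor receptor (r = 0.98, ratio span 1.41-fold), Des, the desmin gene of the muscle fibre (r = 0.97, ratio span 2.41-fold), and Acadl, a fatty acid oxidation enzyme (r = 0.97, ratio span 1.61-fold). The correlation with Des was -0.50 after quantile normalization, while those with Fgfr2 and Acadl were then 0.98 and 0.95. Lama3 was most like Ghr, the growth hormone receptor gene (r = 0.97), Ang2 (r = 0.95) and Fosl2, an AP-1 subunit (r = 0.94), but its ratios to them spanned 28.8-fold, 11.5-fold and 17.0-fold, since they varied less than Lama3 did. In deposited units these correlations were 0.04, 0.75 and 0.39. For Lamb1, which was under the bound, the highest values were with Myog, a myogenic factor (r = 0.86), the hexokinase gene Hk1 (r = 0.74) and Lama5 (r = 0.72). These 15 pairs of a chain and its most alike genes were picked for their r, which had exact permutation p-values between 0.00139 and 0.119 and adjusted ones between 0.122 and 0.358. Their rho lay between 0.71 and 1.00.

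Of the laminin receptor genes, 3 of 16 listed were on the array. Itgb1, the integrin beta 1 chain that partners the laminin-binding alpha chains, had deposited intensities of 1.4697, 0.1927, 0.2453, 0.1647, 0.1169 and 0.0583. It was high on replicate 1 and low on replicate 6, as Lamc1 was. Lamc1 over Itgb1 stayed between 0.29 and 0.429, a 1.48-fold span, and 1.97% of gene pairs had a ratio of smaller SD. The centred levels of Lamc1 and Itgb1 had r = 0.96 and rho = 0.94, with exact permutation p-values of 0.00556 and 0.0167 that adjusted to 0.136 and 0.191. On the other scales r was 0.77 to 0.99, and without replicates 1 and 6 it was 0.88. Itgb1 ran opposite to Lama3 on the centred scale (r = -0.94, rho = -0.94, adjusted p = 0.151 and 0.191 by exact permutation), with r = -0.50 in deposited units. With Lamb2 it had r = -0.91 and rho = -0.89 (adjusted p = 0.157 and 0.244 by exact permutation), but r = 0.50 in deposited units. Rpsa, a ribosomal protein gene also named as a laminin receptor, had an exact permutation p of at least 0.519 with each of the 5 chains on the centred scale, but with quantile normalization its r was -0.94 with Lamb2 and -0.80 with Lama3. Itga2, the alpha 2 integrin chain, had -0.0086 to 0.0008 in deposited units and exceeded the bound on 0 of the 6.

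**Figure D4:**
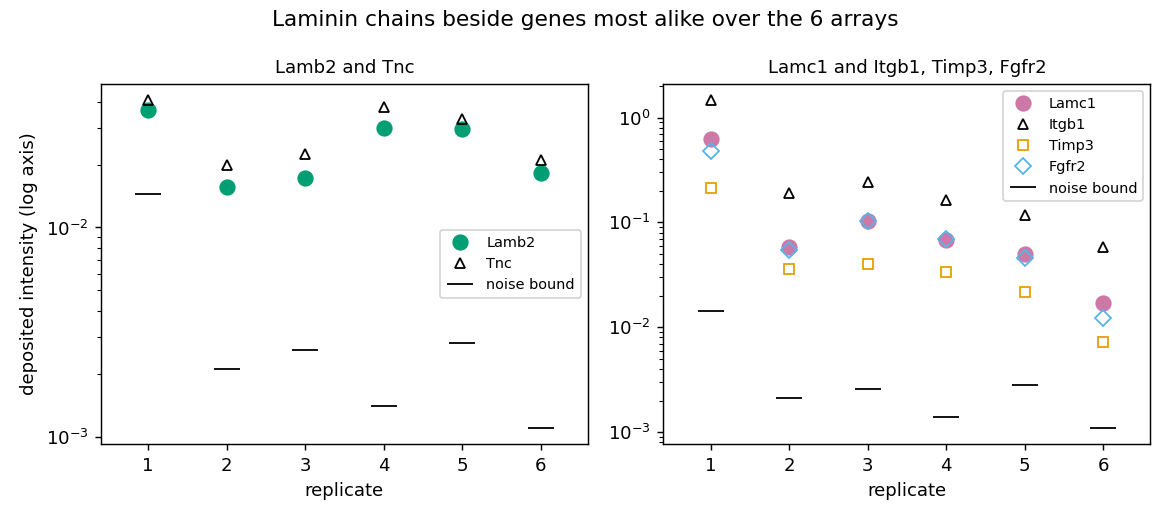
Deposited intensity (log axis) on replicates 1 to 6 of Lamb2 with Tnc (left) and of Lamc1 with Itgb1, Timp3 and Fgfr2 (right), with the noise bound of each array as black dashes. Lamb2 over Tnc spans 1.17-fold and Lamc1 over Itgb1 1.48-fold over the 6 arrays.

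Of the 4 other matrix genes measured (Fn1, Tnc, Tnxb and Thbs1), Tnc alone had an unadjusted exact permutation p under 0.05 with Lama2, Lama3 and Lamb2, and 0 of 4 with Lamb1 or Lamc1. With Lama3 and Lamb2, 1 of 4 was near the 27.3% and 26.7% of all 161 other genes. That share was 4.35% with Lama2, 3.11% with Lamb1 and 42.9% with Lamc1. Fibronectin, encoded by Fn1, had a ratio to Lamb2 that spanned 5.96-fold, close to the median of 5.58-fold over all gene pairs. Its ratio to Lamc1 spanned 3.57-fold, and 30.7% of gene pairs had a ratio of smaller SD. Of 10 proteolysis genes above 0 on all arrays, Lamc1 had 3 at an unadjusted p under 0.05, 2 with r above 0 and 1 below, against 42.9% of all 161 other genes. Timp3, an inhibitor of matrix metalloproteinases bound to the matrix, had r = 0.94 and rho = 0.94 with Lamc1 (adjusted p = 0.14 and 0.191 by exact permutation) and a ratio span of 1.82-fold. Plaur, the urokinase receptor gene, had r = 0.92 and rho = 0.89 with Lamc1 (adjusted p = 0.136 and 0.244 by exact permutation). The gelatinase gene Mmp2 had r = -0.84 and rho = -0.43 with Lamc1 (adjusted p = 0.238 and 0.69 by exact permutation), but r = 0.80 without replicates 1 and 6, so that relation rested on them. Plg, the plasminogen gene, had r = 0.92 and rho = 0.94 with Lamb2 (adjusted p = 0.133 and 0.191 by exact permutation). With Lama3 it had r = 0.86 and rho = 0.89 (adjusted p = 0.211 and 0.244 by exact permutation), and like Plaur and Mmp2 it was not above the noise bound on all arrays.

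Over all 161 other genes, Lamc1 had 69 at an unadjusted exact permutation p under 0.05 (45 with r above 0 and 24 below), Lama3 had 44 (28 and 16) and Lamb2 had 43 (25 and 18). Lama2 had 7 (4 and 3) and Lamb1 had 5 (4 and 1). Among all gene pairs 11.5% were called with r above 0 and 8.44% below. None of these 5 counts held a gene past adjustment, where the smallest adjusted p over all gene pairs was 0.122. The 69 genes of Lamc1 became 41 without replicate 1, 44 without replicate 5, 31 without replicate 6 and 10 without both 1 and 6, and the 43 of Lamb2 became 7 without replicate 1, 20 without replicate 5, 24 without replicate 6 and 6 without both 1 and 6. The 44 genes of Lama3 became 12 without replicate 1, 21 without replicate 4, and 25 each without replicate 2 or 3. Leaving out replicate 4 raised the 7 genes of Lama2 to 30, and leaving out replicate 1 lowered them to 2. Lamb1 had between 2 and 5 genes with any 1 array left out. The share of all gene pairs called fell as well, from 19.9% on 6 arrays to 5.46% without both 1 and 6. It was 11.6% without replicate 1, 15.5% without 2, 14.8% without 3, 15.4% without 4, 13.2% without 5 and 9.26% without 6.

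Of the 7 muscle fibre markers, 6 had an unadjusted p under 0.05 with Lamc1, against 42.9% of all other genes, each with r above 0 on the centred scale. With quantile normalization these r were lower, at 0.52 for Myh7, 0.24 for Myh2, 0.27 each for Myh1 and Myh4, -0.27 for Mb and -0.50 for Des. Lama3 had 4 of the 7 at that threshold, against 27.3% of all other genes, and Lamb2 1 of the 7, against 26.7%. These markers all had r below 0 on the centred scale. With quantile normalization the r of Lama3 with Des was 0.08, and that of Lamb2 with Des was 0.03, or 0.56 without scaling. The summed muscle fibre markers ranged from 178.5 to 464.6 times the array median between arrays. Of 5 endothelial markers, Pecam1 had r = 0.92 and rho = 1.00 with Lama3 (adjusted p = 0.122 and 0.141 by exact permutation), with r = 0.32 in deposited units, and the other 4 had an exact permutation p of at least 0.0597 with Lama3. Flt1 had r = 0.85 with Lamb2 and -0.92 with Lamc1 (adjusted p = 0.226 and 0.163 by exact permutation), the last being 0.23 in deposited units. With Lama3, Lamb2 and Lamc1 alike, 1 of the 5 endothelial markers had an unadjusted exact permutation p under 0.05, or 20%. Among all other genes the share was higher, at 27.3%, 26.7% and 42.9%. The summed endothelial markers ranged from 7.35 to 14.3 times the array median, those of fibroblasts and pericytes from 1.47 to 1.77 and those of adipocytes from 4.36 to 7.53. Both adipocyte markers on the array, Fabp4 and Pparg, had an unadjusted p under 0.05 with Lamc1, against 42.9% of all other genes. Their r had opposite signs, at 0.89 and -0.84, and in deposited units they were 0.98 and -0.007. The leukocyte marker on the array, Il1b, was above 0 on none of the 6 arrays. The part of cell make-up in the laminin values was not tested.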

How the data were processed

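Total RNA from cryosections of soleus, 3 micrograms per sample per the labels, was measured on 6 arrays of 223 probes. The deposited table gives 1 intensity per probe and array; no source used here names its scanner, background method or normalization, and values below 0 show that the authors had subtracted some background. The number of arrays limits the precision. The platform annotation named 205 probes (203 genes) with 1 gene each and left 18 unnamed; of several probes of a gene the one of highest mean intensity was used. No pseudocount was added, and probes above 0 on all arrays were kept for log2 values. Replicates follow the titles, and no 2 arrays held identical values.

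The members and gene lists were chosen with earlier results of these data known. Named genes are the 5 chains, measured members of the lists of laminin receptors, basement membrane partners, other matrix and matrix proteolysis, and the 3 genes above the noise bound with the highest r for each chain. Calculations used Python 3.11.15, numpy 2.4.6 and pandas 2.3.3, and the correlation test was tested on simulated data. Alternatives covered scaling, low values, Spearman's rho and each replicate left out; omitting replicates 1 and 6 together and allowing for noise in folds were added after the data had been seen.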

Additional observations from a re-analysis of the deposited data

Results flagged for a closer look

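The summed intensity of the arrays held a sample far from the others. Replicate 1 summed to 165.3 in deposited units, and its gap to the next array was 0.819 of the whole range, above Dixon's limit for 6 values. Of 16 sets of 6 values examined (the 5 chains, their 10 ratios and the summed intensity), this was the only 1, and chance would give about 0.8. The sum was examined in deposited units and the chains and ratios as log2, and the count depends on that choice. In deposited units Lamc1 was 0.6265 on replicate 1 and at most 0.1026 elsewhere. Lama3 was then 0.0932 on replicate 5 and at most 0.0233 elsewhere. After centring, Lamc1 was highest on replicate 1, and Lamb2, Lama2 and Lama3 were lowest there.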

How the results depend on the processing

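The mean log2 ratios between chains moved by less than their SD under quantile normalization and with any array left out. With values under the noise bound set to it, Lamb2 over Lamb1 moved to 3.14, Lama2 over Lamb1 to 0.82 and Lamb1 over Lamc1 to -4.87. With the bound added to every value these were 2.85, 0.97 and -4.44, and Lamb2 over Lama2 was 1.88. The sign of a correlation between chains turned in several cases. In deposited units r was -0.011 for Lama3 and Lama2, 0.30 for Lamb2 and Lamb1, 0.57 for Lamb2 and Lamc1 and 0.82 for Lama2 and Lamc1. Relative to 28S it was 0.31 for Lamb2 and Lamb1, 0.15 for Lamb2 and Lamc1 and 0.54 for Lama2 and Lamc1. For Lama2 and Lamb1 it was -0.60 with values set to the bound, -0.51 with the bound added and -0.086 as rho, and for Lama2 and Lamc1 0.0201 with values set to the bound. With each array left out in turn, r ranged from -0.66 to 0.14 for Lama3 and Lamb1, from -0.11 to 0.53 for Lamb1 and Lamc1 and from -0.52 to 0.21 for Lamb2 and Lamb1. In deposited units the correlations with array signal were 0.60 for Lamb2, 0.84 for Lama2 and 0.77 for Lamb1, and 0.99 for Lamc1, whose exact permutation p adjusted to 0.03. The count of chain pairs at an unadjusted p under 0.05, 3 as reported, was 0 after scaling to 28S, 1 with values set to the bound, 0 with only probes above the bound (where 2 chains remained), 1 by rho, 0 without replicates 1 and 6, and 0 to 2 with 1 array left out. In the same order, the share of all gene pairs at that threshold was 35.4%, 17.3%, 20.1%, 13.7%, 5.46% and 9.26% to 15.5%. The cause of these differences was not tested.

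At an unadjusted p under 0.05, the genes counted with each chain also depended on the scaling. Without scaling and relative to 28S these were 78 and 20 for Lama2 (7 as reported), 6 and 5 for Lama3 (44), 58 and 12 for Lamb1 (5), 31 and 12 for Lamb2 (43), and 107 and 95 for Lamc1 (69). With values set to the bound they were 2 for Lama2, 40 for Lamb1 and 67 for Lamb2, with the bound added 73 for Lamb1, and after quantile normalization 4 for Lama2. Without replicates 1 and 6 Lama3 had 20, Lamb1 9, Lamb2 6 and Lamc1 10. Only after scaling to 28S did any pass adjustment, 3 for Lama2, 1 for Lama3, 0 for Lamb1, 3 for Lamb2 and 41 for Lamc1, against 8.6% of all gene pairs. Of all gene pairs, 35.4% had an unadjusted p under 0.05 relative to 28S and 42.8% without scaling. That share was 17.3% with values set to the bound, 16.3% with the bound added, 15.2% after quantile normalization and 5.46% without replicates 1 and 6. Setting or adding the bound kept more genes, so the pairs numbered 20503 and 19900 there, against 13041. No paired analysis was possible because there was 1 group.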
